A study of Chenopodium quinoa with 9 samples.

Results

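Of the 54238 genes measured in root, stem and leaf of quinoa (Chenopodium quinoa), 124 met a rule for a lowest level in stem. These genes were chosen by their deposited FPKM values, a read count scaled by gene length and library size. The lowest of the 6 root and leaf values had to be at least 2 FPKM and at least 1.5 times the highest stem value. The limit of 200 genes that the choice allowed was not reached, so all 124 were kept. All differences between stem and the other organs described here follow from that choice and were not tested as findings.

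Field-grown plants of a yellow bitter type were sampled as roots, stems and leaves, with 3 libraries per organ. Each biological replicate was a mixture of 10 of 30 individuals, and its 3 organs came from the same mixture, per the labels' protocols. The groups therefore shared genotype, field and season and were set apart by organ, and no treatment was applied. Differences in the handling of libraries were not assessed. A p-value here measures the spread between mixtures of plants, not between single plants.

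The stem is the axis that joins root and leaf. It holds conducting xylem and phloem, supporting fibres, cortex and pith, and moves water up and sugars down. Roots take up water and minerals, and mature leaves carry out most photosynthesis. In RNA from a whole organ, a lower level in fewer expressing cells and a lower level per cell cannot be told apart. The files give gene identifiers without names, and 0 of the 54238 identifiers occurred in the reference gene table, so no function is given for any gene, no sequence is shown and the organ labels were not checked against marker genes. Of the 124 members, 114 had AUR62 identifiers. The other 10 had another form of identifier and are called here by their rank, from 1 for the deepest stem minimum to 124 for the shallowest.

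Total counts ran from 16112021 to 24846346 per library. Stem replicate 1 recorded the fewest genes of the 9 libraries (37466). It stood apart from the other stem libraries: of the 20675 genes with at least 2 FPKM in all 6 root and leaf libraries, 10.5% were at least 2 times, and 10.4% at most 0.5 times, as high in it as in both others. The members also had their lowest median there. The median member was at 20.6, 20.5 and 16.1 FPKM in root replicates 1 to 3, at 14.5, 16.0 and 16.7 FPKM in the leaf replicates, and at 2.30, 4.05 and 4.06 FPKM in the stem replicates. The members together took 0.780% to 1.08% of counts in root, 0.592% to 0.792% in leaf and 0.118% to 0.213% in stem.

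**Figure D1:**
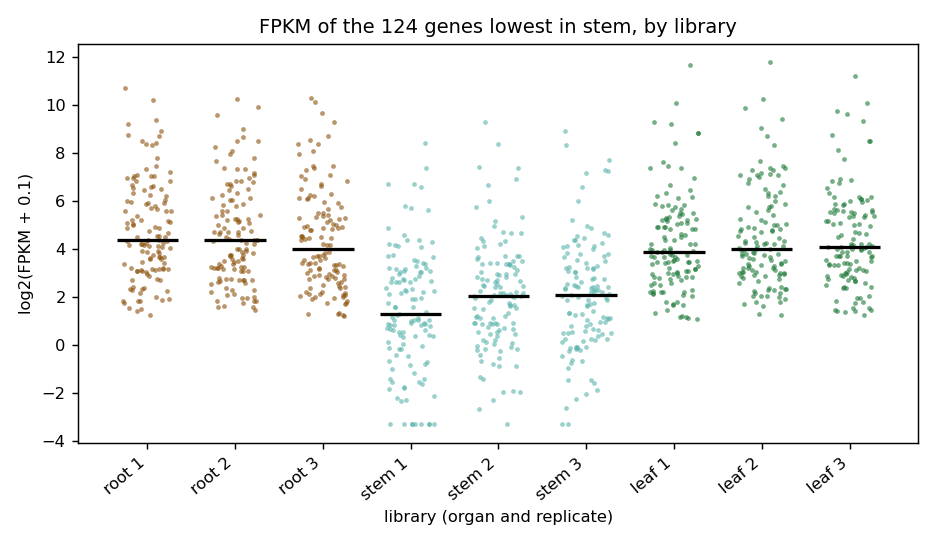
FPKM of the 124 members in each of the 9 libraries, as log2(FPKM + 0.1) on the vertical axis; each point is a gene and each black line the median of a library. The medians of the stem libraries lie at 2.30 to 4.06 FPKM, below the 14.5 to 20.6 FPKM of the root and leaf libraries, with the lowest median in stem replicate 1.

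Few genes met these thresholds with stem as their extreme organ. The same thresholds with another organ in the place of stem gave 2115 genes lowest in root and 811 lowest in leaf. Turned round, so that the organ had to be highest, they gave 1899 genes for root, 1693 for leaf and 102 for stem. The thresholds read the most extreme single library, so an organ whose replicates spread widely meets them less easily. Of the 20675 genes with at least 2 FPKM in all root and leaf libraries, 36.5% had stem libraries at least 2-fold apart. The share was 4.91% for root libraries and 12.3% for leaf libraries. The part of this spread in the numbers of genes was not tested. The stem list grew more when a stem library was left out than when a root or leaf library was. Without stem replicate 1, 2 or 3 the rule found 201, 194 and 242 genes, against 130 to 159 without any single root or leaf library. A rule that asks about fewer libraries can only find more genes. It sets 3 stem libraries against 6 root and leaf libraries, so leaving out a stem library removes more of its side. The larger growth is therefore no measure of how the stem replicates differ. The scale mattered too: with counts per kilobase scaled by total counts in place of FPKM, 82 genes met the rule, of which 72 were among the 124.

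**Figure D2:**
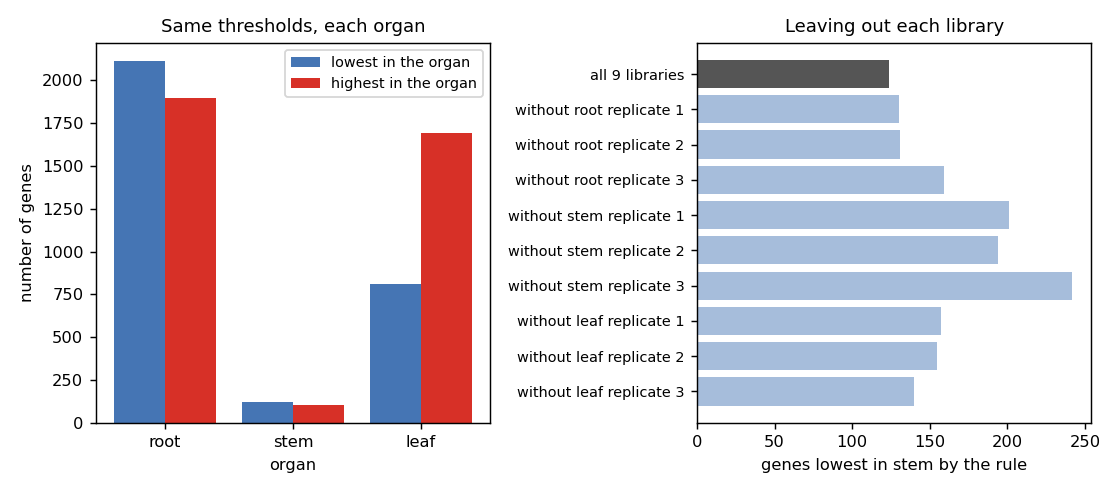
Left, the number of genes that the same thresholds place lowest (blue) or highest (red) in each organ. Right, the number lowest in stem with all 9 libraries (124, dark bar) and with each library left out in turn (130 to 242).

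At the edges of the rule the genes were hard to tell from their neighbours. The members nearest to the ratio limit were AUR62026732, AUR62007699 and AUR62015630, with a lowest root or leaf value 1.51, 1.51 and 1.52 times the highest stem value. Just outside were AUR62021355, AUR62009081 and AUR62042984, at 1.49, 1.49 and 1.49 times. Nearest to the 2 FPKM limit were the members at rank 113 (lowest root or leaf value 2.02 FPKM) and rank 30 (2.07 FPKM) and AUR62033756 (2.14 FPKM). Below it lay a gene of the other identifier form at 1.97 FPKM, AUR62021191 at 1.93 FPKM and AUR62038367 at 1.90 FPKM, each of which met the ratio.

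The depth of the stem minimum varied widely. Measured as the smaller of the root and leaf means over the stem mean, it ran from 1.74-fold to 539.5-fold with a median of 3.49-fold (quartiles 2.64 and 6.15). It was at least 2-fold in 115 members, at least 5-fold in 36, at least 10-fold in 21 and at least 20-fold in 7. The stem mean was below 1 FPKM in 23 members and at 10 FPKM or more in 30. No member had 0 counts in all 3 stem libraries, and 11 had 0 counts in at least 1 of them.

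The deepest minimum was that of AUR62013244. It was at 64.3, 26.7 and 39.5 FPKM in the root libraries and 35.6, 8.12 and 41.1 FPKM in the leaf libraries. The stem libraries held 3 counts in all, every one in replicate 2 (0.157 FPKM). Leaf replicate 2 was low for its organ, yet far above stem. With counts pooled by organ, the level in leaf was 566 times that in stem. The exact 95% Poisson limits of the stem count put this ratio between 194 and 2746, for counting error only.

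AUR62006778 had nearly equal means in the outer organs, 73.9 ± 49.3 FPKM in root and 73.8 ± 56.4 FPKM in leaf (SD, n = 3), with 0.427 ± 0.389 FPKM in stem. Its root values were 129.7, 55.9 and 36.2 FPKM and its leaf values 33.4, 138.2 and 49.9 FPKM, so 1 library of each organ carried much of the mean. AUR62000432 was at 16.9, 8.89 and 3.26 FPKM in root and 9.14, 7.89 and 14.3 FPKM in leaf. In stem it had 2, 0 and 3 counts, and the pooled ratio of root to stem was 125, with Poisson limits of 53.6 and 385.

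AUR62002804 was at 51.4, 47.5 and 32.9 FPKM in root and at 13.5, 16.1 and 18.5 FPKM in leaf. Stem replicates 1 to 3 held 0, 39 and 4 counts of it, so nearly all of its stem signal lay in replicate 2. AUR62032036 had its highest values in leaf, with 38.0, 21.7 and 71.1 FPKM against 19.7, 8.77 and 29.0 FPKM in root. It was at 0.781, 0.156 and 0.523 FPKM in stem. The outer organs overlapped for this gene, and stem lay below both.

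AUR62001939, with a length of 483 bp, was among the steadiest of the deep minima. It was at 17.7, 15.9 and 10.5 FPKM in root, 5.95, 7.41 and 6.16 FPKM in leaf and 0.237, 0.104 and 0.227 FPKM in stem. The 3 organs did not overlap, in the order root, leaf, stem. AUR62001840 was at 57.7, 22.4 and 11.5 FPKM in root and 29.8, 30.2 and 18.4 FPKM in leaf, with 0.273, 2.06 and 0.839 FPKM in stem. AUR62028795 was at 9.22, 8.22 and 6.60 FPKM in root, 4.05, 11.1 and 6.92 FPKM in leaf and 0.469, 0.480 and 0.170 FPKM in stem. Root and leaf overlapped in both of these genes.

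**Figure D3:**
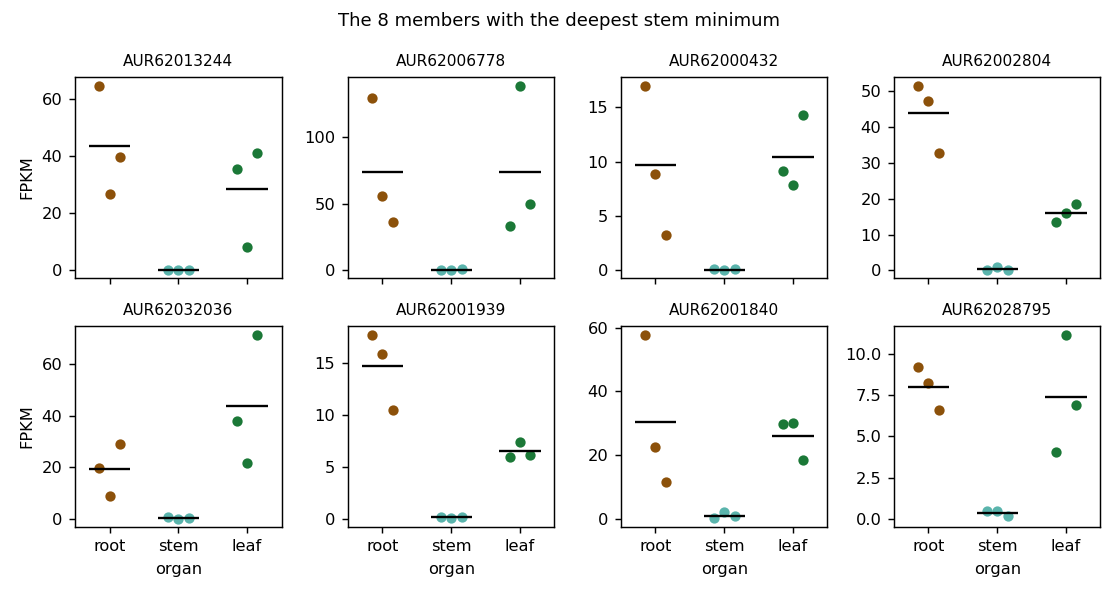
FPKM in every library for the 8 members with the deepest stem minimum, 1 panel per gene with its own scale; points are the 3 replicates of an organ in order and black lines the organ mean. All stem points lie near 0, from 0 to 2.06 FPKM, while replicates within root or leaf often differ more than 2-fold.

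The members also differed in level. The mean over the 6 root and leaf libraries was 100 FPKM or more in 21 members and below 10 FPKM in 36. The most abundant was the member at rank 90, which has a length of 451 bp and a non-AUR62 identifier. It was at 1681, 976.3 and 1268 FPKM in root, 3253, 3529 and 2367 FPKM in leaf, and still at 340.9, 616.5 and 484.5 FPKM in stem. Its stem mean of 480.6 FPKM was the highest stem mean of any member.

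AUR62010383 and AUR62010382, which have consecutive identifier numbers, came next in level and differed in their preferred outer organ. AUR62010383 was at 658.9, 764.4 and 631.1 FPKM in root, 1070, 1201 and 1088 FPKM in leaf and 103.1, 332.0 and 325.7 FPKM in stem. AUR62010382 was at 1175, 1225 and 1110 FPKM in root, 342.1, 416.7 and 275.3 FPKM in leaf and 103.3, 64.3 and 153.1 FPKM in stem. For AUR62010383 the order of means was leaf, root, stem, and for AUR62010382 it was root, leaf, stem, with no overlap between organs in either gene. Both are short, at 270 and 393 bp.

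AUR62025562 and AUR62022854 had nearly constant levels in stem. AUR62025562 was at 167.5, 164.9 and 155.4 FPKM in stem, against 591.8, 506.4 and 809.1 FPKM in root and 587.0, 939.7 and 645.0 FPKM in leaf. AUR62022854 was at 95.8, 100.2 and 96.2 FPKM in stem, against 345.5, 246.7 and 177.7 FPKM in root and 454.9, 528.7 and 783.2 FPKM in leaf. The SD over the stem libraries was 6.36 and 2.42 FPKM, while the SD over the leaf libraries was 189 and 172 FPKM. AUR62026942 varied more in stem, with values of 49.1, 121.6 and 144.4 FPKM against 422.8, 360.0 and 334.3 FPKM in root and 619.4, 676.0 and 852.9 FPKM in leaf.

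Stem replicate 1 set the members apart from each other. The 20675 genes at or above 2 FPKM in all root and leaf libraries are called comparison genes here. Stem replicate 1 was the lowest stem library for 72 members (58.1%) and the highest for 25 (20.2%), against 42.0% and 45.9% of the comparison genes. It was at most 0.5 times both other stem libraries in 37 members (29.8%), against 10.4%. The choice set a ceiling on the highest stem library. It therefore kept out genes that were high in any stem library, replicate 1 included, and left a low replicate 1 free to occur. These shares are thus not independent of the choice. The part of stem replicate 1 in the depth of the minima was not tested. The extremes lay on both sides. AUR62013244 and AUR62002804 were among 9 members with 0 counts in stem replicate 1, tied as the lowest. At the other extreme, AUR62014077 was at 3.70 FPKM there against 0.578 and 0.487 FPKM in replicates 2 and 3. AUR62017006 was at 2.88 FPKM in stem replicate 1 against 0.777 and 0.142 FPKM, a difference between low values, since all 3 libraries together held 18 counts.

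Within root and leaf, other libraries led. Root replicate 1 was the highest root library for 72 members (58.1%) and root replicate 3 the lowest for 85 (68.5%), against 28.6% and 37.6% of the comparison genes. Leaf replicate 2 was the highest leaf library for 65 members (52.4%), against 40.5%. In 39 members the leaf libraries were at least 2-fold apart, in 20 the root libraries and in 67 the stem libraries. Among the comparison genes these shares were 12.3%, 4.91% and 36.5%, against 31.5%, 16.1% and 54.0% of members. The biological coefficient of variation in the fit had a median of 0.348 for members and 0.277 for comparison genes. The median stem mean was 3.68 FPKM for members and 11.8 FPKM for comparison genes, a gap set by the choice. The stem shares thus compare genes at unlike stem levels, and the fit uses the stem libraries too. No test was made of these shares.

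The difference between stem and the outer organs was then read in the counts, as a description only, since the choice used the same libraries. All 124 members passed the filter on low counts. In the edgeR quasi-likelihood fit of all 36685 tested genes, calls were made below an adjusted p of 0.05 (Benjamini-Hochberg over all tested genes). By this measure 111 members were called lower in stem than in root, where 9.27% of all tested genes were. In stem against leaf 114 were called lower, where 6.42% of all tested genes were. Both calls were made for 106 members, root alone for 5, leaf alone for 8 and neither for 5. The stem libraries enter both comparisons. The 5 with neither call were AUR62029550, AUR62035073, AUR62010295, AUR62004595 and AUR62008951, named after their values were seen. In each, stem replicate 1 was the lowest library, as it was among the stem libraries for 58.1% of all members. AUR62010295, for example, was at 11.6, 171 and 206 FPKM in stem, 478, 403 and 327 FPKM in root and 460, 324 and 432 FPKM in leaf. Without stem replicate 1, its adjusted p was 0.0217 against root and 0.0328 against leaf (edgeR), and 104 members had both calls. AUR62004595 and AUR62008951 also had both calls then. AUR62029550 and AUR62035073 were still not called against leaf (edgeR adjusted p = 0.106 and 0.0662). Compared with leaf, the number called was 70 without leaf replicate 1 and 71 without leaf replicate 3, and it was 42 when stem and leaf were fitted alone.

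The 124 genes did not exhaust those called lower in stem than in both other organs, of which there were 215 among the tested genes. Of the 109 that were not members, 49 met the ratio but not the 2 FPKM limit, 55 met the limit but not the ratio, and 5 met neither.

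Root against leaf is the comparison for which the choice set no direction. It did ask for at least 2 FPKM in all 6 of those libraries, which keeps out genes silent in either organ. The ratio of leaf mean to root mean in FPKM was within 2-fold for 75.8% of members, about the 74.9% of comparison genes. The median size of the fitted difference was 0.55 on the log2 scale, against 0.51 for the comparison genes. The median signed difference, leaf over root, was -0.11 for members and 0.01 for comparison genes. Of the 124 members, 24 (19.4%) were called lower in leaf than in root, against 18.7% of all tested genes and 13.9% of the comparison genes that were tested. Called higher in leaf were 9 (7.26%), against 19.0% of all tested genes and 17.7% of the comparison genes. The share lower in leaf is near that of all tested genes and above that of the comparison genes. The share higher in leaf is below both, in a set of genes whose replicates spread more widely. It depended on which libraries were fitted. Called higher in leaf were 21 members with root and leaf fitted alone and 20 without stem replicate 1, but 3 without root replicate 2. The comparison shares were not computed for those fits, and whether the sets differ was not tested.

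For the 91 members not called between root and leaf, the data did not show equal levels. The 95% interval of the difference lay within 2-fold either way for 24 of all 124 members. These include called members, such as AUR62003938 (-0.97 to -0.31, log2). The same share was not computed for the comparison genes. The counts of calls also moved with single libraries. Those lower in leaf numbered 15, 14, 15 and 15 without root replicate 1, root replicate 2, leaf replicate 1 and leaf replicate 3. Those higher in leaf numbered 3 without root replicate 2 or root replicate 3 and 20 without stem replicate 1. Under all 16 alternative settings, including each library left out, 14 of the 24 stayed called lower in leaf and 3 of the 9 stayed called higher.

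**Figure D4:**
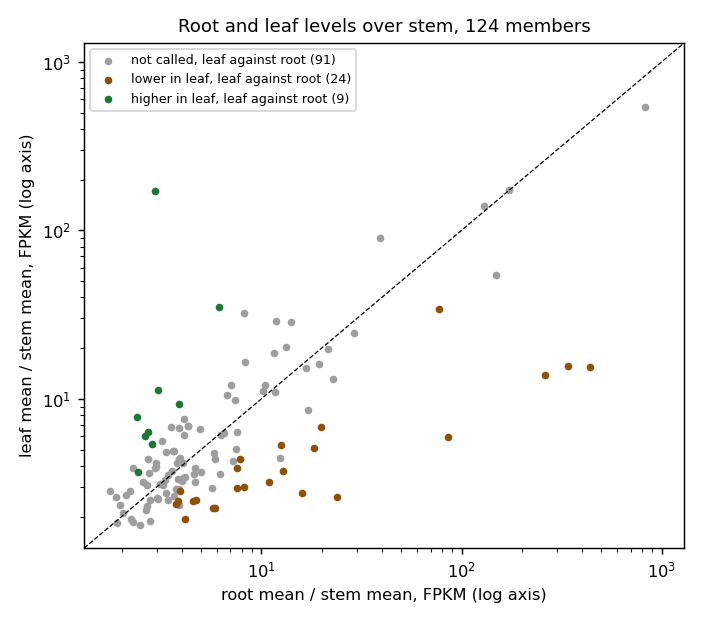
Root mean over stem mean (horizontal) and leaf mean over stem mean (vertical), both as FPKM ratios on log axes, for the 124 members; the dashed line marks equal root and leaf means. Colours give the edgeR call between leaf and root (24 lower in leaf, 9 higher, 91 not called), and most members lie close to the line, with the most root-rich called genes far to its right.

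A small set of members was far higher in root than in leaf, and lower again in stem. AUR62020620 was at 363.0, 267.1 and 250.6 FPKM in root, 2.17, 13.0 and 16.0 FPKM in leaf and 1.18, 0.296 and 0.540 FPKM in stem. Leaf replicate 1 came near the stem libraries for this gene. Its leaf level differed from root by -4.79 ± 0.66 on the log2 scale (SE; edgeR adjusted p = 0.000807), with all leaf libraries below all root libraries.

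AUR62010263 was at 434.7, 201.0 and 155.5 FPKM in root, 10.6, 8.99 and 16.8 FPKM in leaf and 0.526, 1.79 and 0 FPKM in stem. The difference of leaf from root was -4.42 ± 0.97 (log2, SE; edgeR adjusted p = 0.00778). AUR62017006 was at 317.5, 299.9 and 372.2 FPKM in root and 15.4, 13.4 and 23.5 FPKM in leaf, with its low stem values given above. Its difference was -4.23 ± 0.59 (log2, SE; edgeR adjusted p = 0.000898). The 3 genes share the order root, leaf, stem without any overlap of organs.

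AUR62022716 had the same order at a lower level. It was at 54.8, 42.7 and 38.9 FPKM in root, 2.43, 3.66 and 3.43 FPKM in leaf and 0.515, 0.271 and 0.813 FPKM in stem. Leaf differed from root by -3.83 ± 0.36 (log2, SE; edgeR adjusted p = 0.000126). These 4 were called under all alternative settings. AUR62010382, described above for its high level, was lower in leaf than in root by -1.75 ± 0.33 (log2, SE; edgeR adjusted p = 0.00398), also under all settings. AUR62001939 was lower in leaf by -1.16 ± 0.33 (log2, SE; edgeR adjusted p = 0.0229), and its adjusted p was 0.0587 with a replicate block. Its call was also lost when root replicate 1 (0.112), root replicate 2 (0.1), leaf replicate 1 (0.0787) or leaf replicate 3 (0.0710) was left out.

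The reverse pattern was rarer. AUR62012384 was the most leaf-rich member, at 177.6, 22.5 and 364.0 FPKM in leaf against 2.78, 2.86 and 4.0 FPKM in root and 0.237, 1.73 and 1.31 FPKM in stem. Its leaf libraries differed by over 10-fold, yet all lay above root. Leaf exceeded root by 5.88 ± 1.03 (log2, SE; edgeR adjusted p = 0.00278), or by 4.97 without leaf replicate 3 (adjusted p = 0.00746). Stem was not called lower than root (edgeR adjusted p = 0.282).

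AUR62024622 was at 5.54, 32.9 and 7.79 FPKM in leaf, 2.68, 3.21 and 2.23 FPKM in root and 0.184, 0.161 and 0.971 FPKM in stem. Its leaf mean rested on leaf replicate 2. Leaf exceeded root by 2.51 ± 0.81 (log2, SE; edgeR adjusted p = 0.0392), but by 1.32 without leaf replicate 2 (adjusted p = 0.180). Its adjusted p was also above 0.05 with a replicate block (0.0853) and without root replicate 1, 2 or 3 (0.108, 0.0965 and 0.114).

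A pair of non-AUR62 members was also leaf-rich. The one at rank 75 was at 100.2, 167.3 and 119.3 FPKM in leaf, 47.0, 29.2 and 27.9 FPKM in root and 12.4, 12.8 and 9.03 FPKM in stem. Leaf exceeded root by 1.91 ± 0.30 for it (log2, SE; edgeR adjusted p = 0.0015), under all settings. The one at rank 105 was at 36.5, 13.7 and 56.5 FPKM in leaf, 10.3, 11.8 and 10.5 FPKM in root and 2.88, 4.14 and 6.56 FPKM in stem. Its difference was 1.72 ± 0.49 (log2, SE; edgeR adjusted p = 0.0239). That call was lost without any single root library (0.0732, 0.0643 and 0.0706), without leaf replicate 1 (0.0602) and without leaf replicate 3 (0.0874).

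Of the abundant members, AUR62022854 was higher in leaf than in root by 1.21 ± 0.33 and the gene at rank 90 by 1.23 ± 0.35 (log2, SE; edgeR adjusted p = 0.0205 and 0.0247). With a replicate block these adjusted p values were 0.0562 and 0.0625. AUR62022854 also lost its call without root replicate 2 (0.0722), root replicate 3 (0.0707) or leaf replicate 3 (0.0707). The gene at rank 90 lost it without root replicate 2 (0.0965), root replicate 3 (0.0717), leaf replicate 1 (0.0719) or leaf replicate 2 (0.0601). AUR62025562 showed a difference of 0.19 ± 0.29 (log2, SE; edgeR adjusted p = 0.632). AUR62026942 and AUR62010383 had differences of 0.96 ± 0.39 and 0.72 ± 0.40 (adjusted p = 0.0838 and 0.196). Their adjusted p was 0.00673 and 0.00838 without stem replicate 1, a library of neither organ that enters through the shared estimate of the spread.

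Among the deepest minima, root and leaf were mostly not told apart. The differences of leaf from root were -0.60 ± 0.64 for AUR62013244, 0.01 ± 0.71 for AUR62006778 and 0.13 ± 0.60 for AUR62000432 (log2, SE; edgeR adjusted p = 0.496, 0.994 and 0.889). AUR62001840 and AUR62028795 differed by -0.21 ± 0.67 and -0.11 ± 0.42 (adjusted p = 0.832 and 0.861). For AUR62002804 the difference was -1.44 ± 0.84 (adjusted p = 0.212). The edgeR adjusted p for this gene was 0.0215 without stem replicate 2 and 0.00207 with root and leaf fitted alone. With limma on log2(FPKM + 1) it was 0.00427, and under the other settings it was above 0.05. For AUR62032036 the difference was 1.2 ± 0.60 (adjusted p = 0.151), and with a replicate block its adjusted p was 0.0233.

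**Figure D5:**
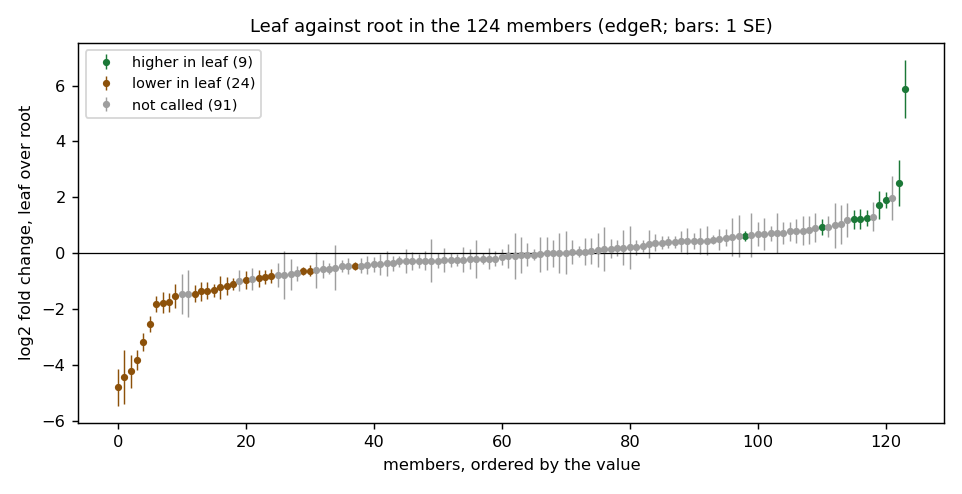
Log2 fold change of leaf over root for each of the 124 members, ordered by value, from the edgeR fit; bars are 1 SE. Calls lower in leaf (24, brown) reach down to -4.79, calls higher in leaf (9, green) reach up to 5.88, and the 91 grey members were not called.

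The median gene length was 1435 bp for members (quartiles 826 and 1925) and 1470 bp for the comparison genes (quartiles 959 and 2205), a difference that was not tested. Non-AUR62 identifiers made up 8.06% of members and 8.57% of the comparison genes. A total of 16 members had an identifier number within 10 of that of another member, as 8 pairs, against 4 of the 102 genes highest in stem. The lists differ in length, and a longer list holds more close numbers. The share expected of a list of this length was not computed. The files hold no positions, so closeness of numbers is not shown to be closeness in the genome. Quinoa is an allotetraploid, and near-identical copies of a gene, where present, may have shared reads. That would make the value of any single copy uncertain. Whether any of the 8 pairs are such copies is not known, since no sequences were compared.

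The pairs described here shared some features of their profile and differed in others. AUR62017774 and AUR62017775 both had 0 counts in stem replicate 1, as 9 of the 124 members did. The former was at 2.55, 2.90 and 5.88 FPKM in root and 4.74, 4.87 and 13.0 FPKM in leaf, and the latter at 29.2, 24.6 and 27.5 FPKM in root and 30.4, 26.4 and 66.9 FPKM in leaf. Leaf replicate 3 was the highest library for both. AUR62007910 and AUR62007911 had leaf replicate 2 in common as their highest leaf library, at 17.2 FPKM against 8.43 and 9.22 FPKM, and at 26.8 FPKM against 15.2 and 14.5 FPKM. That library was the highest leaf library for 52.4% of all members, so sharing it does not set this pair apart.

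The non-AUR62 members at ranks 55 and 76 also have consecutive numbers and were both lower in leaf than in root under all settings, by -1.76 ± 0.36 and -1.44 ± 0.30 (log2, SE; edgeR adjusted p = 0.00588 and 0.00571). The former was at 48.0, 38.3 and 31.2 FPKM in root and 11.5, 15.4 and 7.39 FPKM in leaf, with 1.76, 3.32 and 4.10 FPKM in stem. The latter was at 8.69, 9.44 and 7.72 FPKM in root, 3.18, 4.02 and 2.26 FPKM in leaf and 0.822, 1.26 and 1.09 FPKM in stem. AUR62010382 and AUR62010383, in contrast, had opposite orders of root and leaf.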

How the data were processed

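The authors deposited raw read counts per gene and FPKM values for 54238 genes, per the file headers. The submitters' processing notes list TopHat2 2.0.12 and Bowtie2 2.0.6 (counting tool and genome build: not given in the sources used here). The library sizes implied by the deposited FPKM were 0.773 to 1.21 times the total counts, and close to TMM-scaled sizes (0.788 to 1.25 times). Gene lengths were recovered as count over FPKM. No column was left out (0 belonged to no sample).

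Counts were fitted with edgeR 4.0.16 in R 4.3.3 (filterByExpr, TMM, robust quasi-likelihood, organ as the only factor, 9 libraries). The SE of a log2 fold change was derived from its F value. Alternatives were RLE factors, no filter, DESeq2 1.42.0, limma 3.58.1 on log2 FPKM with a pseudocount of 1 or 0.1, the replicate number as a block, 2 organs alone, each library left out, and other limits and scales of the choice.

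Organs of a replicate came from the same mixture of plants, per the labels' protocols, so the numbers were taken to pair libraries. Deviations of same-numbered libraries correlated at -0.146 to 0.091 over genes, with 0 of 9 pairs above 0.1. Over the members alone they ran from -0.123 to 0.27, with leaf and root of replicate 2 (0.27) and stem and root of replicate 2 (0.123) above 0.1. Members, tests and the rule for named genes were chosen with earlier results of these data known. That rule took the 8 deepest and 6 most abundant members, up to 4 leaf and root calls per direction with the largest fitted change, 3 genes on either side of each limit, and the 2 extremes of stem replicate 1 each way (ties at 0 by list order). Further members with adjacent identifier numbers were named after their values were seen.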

Additional observations from a re-analysis of the deposited data

How the results depend on the processing

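The list depended on its limits and scale. It held 229 genes with the looser of the alternative ratio limits and 56 with a ratio of 2. On TMM-scaled counts per kilobase, 120 members still met the rule. With counts per kilobase scaled by total counts alone, 82 genes met it, 72 of them members. Leaving out single libraries gave 130 to 242 genes. Calls lower in leaf than root ranged from 14 to 29 and calls higher in leaf from 3 to 20 without single libraries; calls lower in stem ranged from 76 to 117 against root and from 70 to 110 against leaf. Calls higher in leaf numbered 14 with DESeq2 and 21 with root and leaf alone, and calls lower in stem than leaf 42 with those organs alone. With the replicate block, 17 members were lower and 6 higher in leaf than root, and 97 and 82 lower in stem than root and leaf. For 23 named members, 334 of 368 combinations with an alternative kept the call or the lack of one. A call was lost in 25, gained in 9 and turned around in 0. Differences that were not called could change sign, as for AUR62006778, at 0.01 in the main fit and -0.80 without leaf replicate 2 (log2). The cause of each change was not tested, except that fits without a library have fewer samples. The low stem counts limit the ratios of the deepest minima.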
